A study of Mus musculus with 22 samples.

Results

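The female part of the study compared 6 brain libraries labelled cKO with 5 labelled WT, each from 1 animal, chosen by the sex in the labels and by the female count table. These are 11 of the 22 libraries of the series. All the animals, labelled cKO and labelled WT alike, carried a floxed Smc3 gene, had an age of 8 weeks and had been given tamoxifen by oral gavage 6 weeks before. Animals labelled cKO also carried Camk2a-cre/ERT2, a Cre recombinase that needs tamoxifen and is driven by the Camk2a promoter, and animals labelled WT lacked it. The promoter is active mainly in excitatory forebrain neurons, so other cells of the tissue keep an intact gene by design. The sample titles name the hypothalamus and, for both groups alike, carry the words control and week 6. The tissue field names the prefrontal cortex. The study concerns sex differences in what forebrain SMC3 does for anxiety-like behaviour. The comparison described here asks which genes differed between the female groups.

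SMC3 is one of the long coiled-coil proteins of cohesin, the ring complex that entraps DNA. In dividing cells cohesin holds sister chromatids together. In neurons, which no longer divide, it is known for extruding chromatin loops between CTCF sites and for bringing distant enhancers to promoters, for example at the clustered protocadherins.

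Smc3 itself, the targeted gene, was higher in the libraries labelled cKO. It had a lowest, median and highest level of 121, 126 and 149 CPM (counts relative to the scaled library total) in the 6 libraries labelled cKO, against 83.6, 73.5, 73.8, 65.5 and 72.1 CPM in the 5 labelled WT. Every library labelled cKO lay above every library labelled WT, with a log2 fold change of 0.81 (cKO minus WT, SE 0.07; edgeR's quasi-likelihood test, Benjamini-Hochberg adjusted p = 9.17e-05). The count sums all exons of the gene, and the presence of the floxed exons cannot be read from it. Every direction given here is therefore that of the labels. Of 18 measured cohesin subunits and regulators, 3 were higher and 1 was lower in the libraries labelled cKO, against 0.62% higher and 2.75% lower over all genes tested. Stag1, a subunit that binds the ring, averaged 63.9 ± 1.27 CPM in the libraries labelled cKO (SD, n = 6) and 51.6 ± 3.41 CPM in those labelled WT (SD, n = 5; log2 fold change 0.31). Pds5b, which regulates how long the ring stays bound, averaged 81.8 ± 5.37 CPM in the libraries labelled cKO and 112 ± 10.5 CPM in those labelled WT (log2 fold change -0.46). The third higher member, the SMC3 deacetylase Hdac8, lost its call when any 1 of 9 libraries was left out. Smc1a, the partner of SMC3 in the ring, differed by 0.19 on the log2 scale and did not pass (edgeR adjusted p = 0.064).

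The libraries held 14856706 to 15758213 counts when labelled cKO and 13832715 to 16896239 when labelled WT. The second principal component ran between -1.61 and 29.1 in the libraries labelled cKO and between -24.1 and -1.15 in those labelled WT, so the groups met at 1 library each. Library WT 25 stood apart on the first component, at 64.8 against -30.2 to 19.8 in the other 10. It had the lowest summed levels of the markers of oligodendrocytes, astrocytes, interneurons, striatum and choroid plexus, and the highest of excitatory neurons. Library cKO 21 had the choroid plexus transcript Ttr at 528 CPM, while the other libraries labelled cKO had at most 6.43 CPM. The 6 oligodendrocyte markers summed to 4184 to 13518 CPM in libraries labelled cKO and 2973 to 9590 CPM in those labelled WT, and none passed. The 6 excitatory neuron markers summed to 3635 to 5351 CPM in libraries labelled cKO and 4021 to 7096 CPM in those labelled WT. The 6 striatum markers summed to 256 to 568 CPM in libraries labelled cKO and 154 to 450 CPM in those labelled WT. The 4 hypothalamus markers in the table summed to 2.45 to 6.27 CPM in libraries labelled cKO and 2.11 to 8.32 CPM in those labelled WT. In bulk tissue, fewer cells of a type and less RNA per cell cannot be told apart. A further fit took oligodendrocyte marker level as a covariate and kept 393 of the 543 calls given below. The part of the other marker levels in the results below was not tested.

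**Figure D1:**
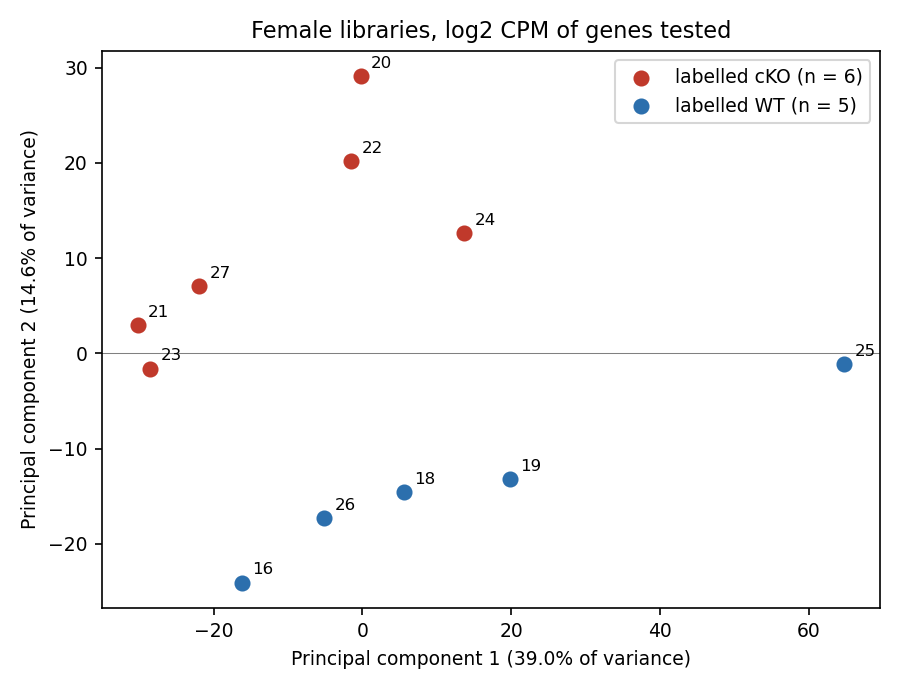
Each point is 1 of the 11 female libraries, placed by the first (x) and second (y) principal component of log2 CPM over the genes tested and marked with its animal number. Libraries labelled cKO (red) lie at or above -1.61 on the second component and those labelled WT (blue) at or below -1.15, with WT 25 at 64.8 on the first.

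Of 16123 genes tested, 543 passed an adjusted p of 0.05 (3.37%), of which 443 were lower (2.75%) and 100 higher (0.62%) in the libraries labelled cKO. The falls were also larger. At least a 2-fold difference was seen for 109 of the lower genes and 8 of the higher ones, and the median log2 fold change was -0.69 among the lower and 0.41 among the higher. Over all genes tested the median was 0.01, and 47.1% had a negative value. All 6 libraries labelled cKO lay below all 5 labelled WT for 329 of the 443 lower genes, and above them for 73 of the 100 higher ones. Over all genes tested the same held for 2.58% and 1.04%. Calls were made at every level of expression: 132 genes were lower and 28 higher among the 3733 with a mean of 1000 or more normalised counts, and 49 lower and 9 higher among the 3397 with a mean under 50. The median SE of the log2 fold change was 0.0776 in the most abundant of these classes and 0.267 in the least abundant. Leaving out WT 19 gave 324 calls and leaving out WT 26 gave 681, and 283 of the 543 genes passed with every library left out in turn (260 lower, 23 higher). Genes named only among the flagged results are left out here. Of the others described below, Cacnb2, Crh, Cd74, Esrrb, Nrp2, Rian and Slc18a2 lost their calls both in 1 fit of all 4 groups of the series and in some leave-outs. Crhr1, Crym, Diaph1, Gabrg3, Per3, Sst, Thrb, Trh, Vsnl1 and Wnt5a, and Pds5b above, lost them in that fit and in no leave-out (edgeR adjusted p of 0.064 to 0.73 there).

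**Figure D2:**
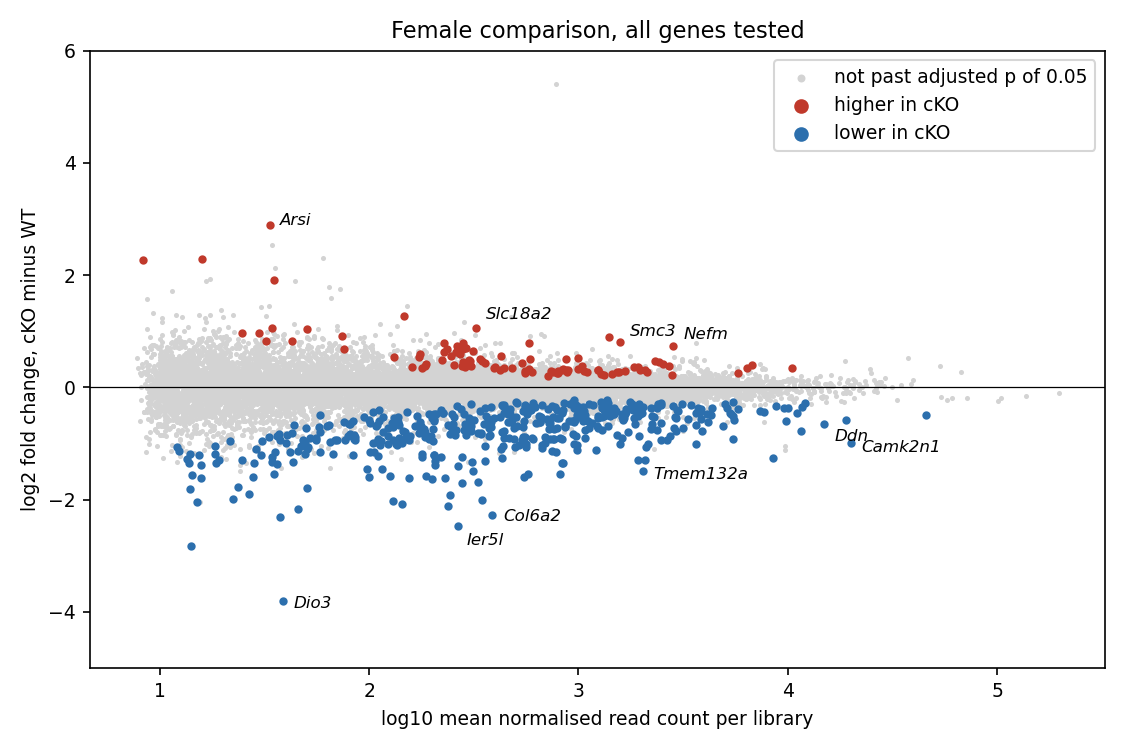
Each point is 1 of the 16123 genes tested, with the log10 mean normalised read count per library on the x axis and the log2 fold change (cKO minus WT) on the y axis. The 443 genes lower in libraries labelled cKO (blue) outnumber the 100 higher ones (red), with median log2 fold changes of -0.69 and 0.41, and the named genes are described in the text.

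Several of the strongest falls separated the groups completely. Ier5l, a member of the immediate-early response family, ran between 5.34 and 6.13 CPM with a median of 5.56 in the libraries labelled cKO, against 21.4, 31.4, 32.3, 34.3 and 38.7 CPM in those labelled WT. The libraries labelled cKO were all alike and low, while those labelled WT varied. The difference was -2.47 (log2, SE 0.13; edgeR adjusted p = 9.39e-07). Dio3, the deiodinase that inactivates thyroid hormone, was at 0.137, 0.351 and 0.607 CPM (lowest, median, highest) in the libraries labelled cKO, against 5.62, 5.09, 4.16, 5.94 and 4.99 CPM in those labelled WT. The groups were far apart, although the low levels rest on few reads in the libraries labelled cKO (log2 fold change -3.82, SE 0.27; edgeR adjusted p = 1.38e-05). Tmem132a, a membrane protein, was uniform at 69.9, 73.0 and 79.6 CPM (lowest, median, highest) in the libraries labelled cKO and spread over 159, 208, 240, 281 and 146 CPM in those labelled WT. Its difference was -1.49 (SE 0.14; edgeR adjusted p = 0.000121). Rasgef1c, a member of a family of exchange factors for Ras-like GTPases, averaged 9.05 ± 1.28 CPM in libraries labelled cKO (SD, n = 6) and 29.5 ± 9.03 CPM in those labelled WT (SD, n = 5). Nell1, a secreted growth-regulating protein, averaged 10.8 ± 2.72 CPM in libraries labelled cKO and 34.8 ± 7.37 CPM in those labelled WT. Aloxe3, an epidermis-type lipoxygenase, averaged 4.25 ± 0.534 CPM in libraries labelled cKO and 9.49 ± 0.676 CPM in those labelled WT. These genes kept their calls with each library left out.

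**Figure D3:**
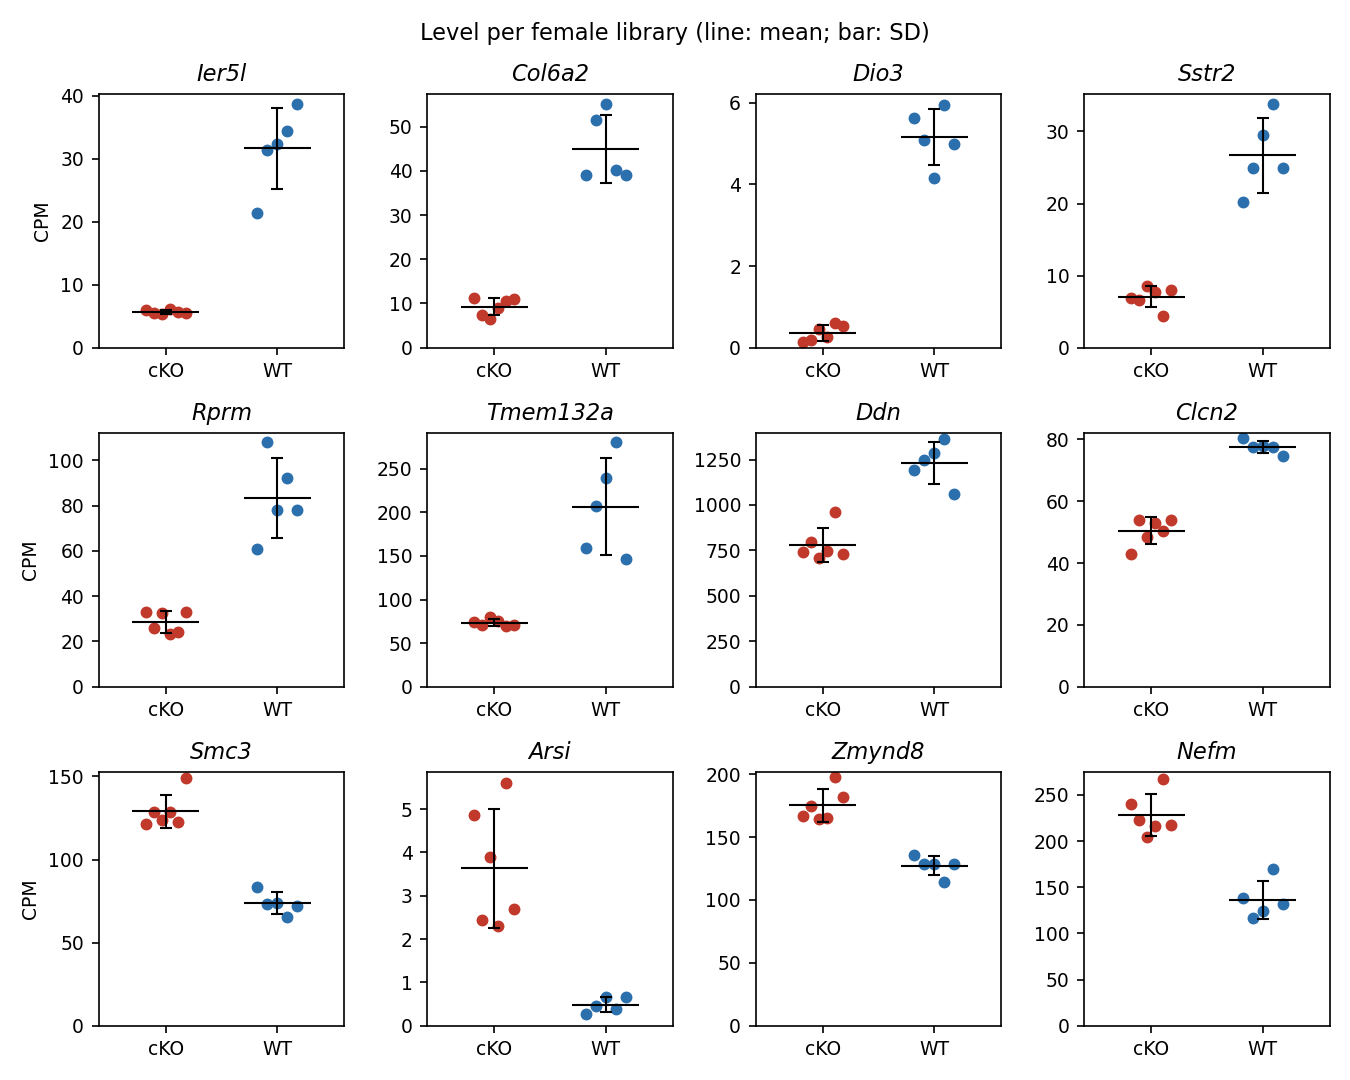
Level of 12 genes in CPM (y axis, from 0) in each of the 6 libraries labelled cKO (red, left) and the 5 labelled WT (blue, right), with the mean as a line and the SD as a bar. In the upper 8 panels every library labelled cKO lies below every library labelled WT, and in the lower 4 panels (Smc3, Arsi, Zmynd8, Nefm) every one lies above.

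Promoter windows of genes with large differences are shown because cohesin acts between promoters and distant sites, and because the shared letters occur at genes that moved in either direction. Each window runs from 250 bases before to 50 bases after the annotated start in RefSeq build GRCm38.p6, on the gene's own strand, and capitals mark the full cAMP response element TGACGTCA. Sstr2 (somatostatin receptor, lower in libraries labelled cKO) lies at chr11:113619077-113619376, plus strand. Ptpru (receptor tyrosine phosphatase, lower) lies at chr4:131838229-131838528, minus strand. Slc18a2 (vesicular monoamine transporter, higher) lies at chr19:59260628-59260927, plus strand. Ier5l lies at chr2:30474150-30474449, minus strand, and its window holds none of the 3 motifs searched.
Sstr2: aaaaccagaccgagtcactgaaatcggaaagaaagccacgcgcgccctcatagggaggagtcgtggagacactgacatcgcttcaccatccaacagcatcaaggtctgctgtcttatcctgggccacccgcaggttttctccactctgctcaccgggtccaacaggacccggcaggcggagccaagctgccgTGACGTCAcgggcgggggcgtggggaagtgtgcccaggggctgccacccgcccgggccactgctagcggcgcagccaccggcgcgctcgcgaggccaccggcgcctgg
Ptpru: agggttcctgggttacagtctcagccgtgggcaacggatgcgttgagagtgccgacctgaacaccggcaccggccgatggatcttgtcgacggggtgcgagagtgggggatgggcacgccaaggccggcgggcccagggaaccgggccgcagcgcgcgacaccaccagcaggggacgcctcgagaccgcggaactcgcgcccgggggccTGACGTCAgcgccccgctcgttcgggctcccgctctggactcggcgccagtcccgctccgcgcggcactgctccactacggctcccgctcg
Slc18a2: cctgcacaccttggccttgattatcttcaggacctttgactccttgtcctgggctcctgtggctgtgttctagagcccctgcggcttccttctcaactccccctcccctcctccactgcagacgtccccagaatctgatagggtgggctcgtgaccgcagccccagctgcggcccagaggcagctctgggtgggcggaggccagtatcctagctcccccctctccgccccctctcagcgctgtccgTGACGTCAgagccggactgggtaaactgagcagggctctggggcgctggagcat
Ier5l: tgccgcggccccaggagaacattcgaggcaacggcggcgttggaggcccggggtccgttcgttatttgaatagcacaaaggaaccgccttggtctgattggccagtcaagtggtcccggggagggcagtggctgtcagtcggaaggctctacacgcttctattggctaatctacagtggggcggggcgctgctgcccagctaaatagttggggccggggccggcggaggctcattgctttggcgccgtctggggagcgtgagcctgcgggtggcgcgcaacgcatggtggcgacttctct

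The 3 motifs were searched on both strands, and none contains another. They were TGACGTCA (bound by CREB), CCACNAGNG (9 letters of the CTCF consensus) and TATAAA (the TATA box). Among called genes with a mean of at least 50 normalised counts, TGACGTCA was in 9 of 367 windows of genes lower in libraries labelled cKO (2.45%) and 5 of 93 windows of genes higher (5.38%), against 2.82% of windows of all genes tested and 1.79% of all windows. These are shares of windows and not of genes, since a gene can have several, which may overlap. The 367 windows came from 275 lower genes and the 93 from 67 higher genes. Over called genes of any mean count it was in 10 of 400 windows of lower genes (2.5%) and 5 of 102 windows of higher genes (4.90%). With the same minimum count, CCACNAGNG was in 4.90% of windows of lower genes and 2.15% of those of higher genes, against 4.61% of windows of genes tested and 4.10% of all windows. TATAAA was in 8.45% and 10.8% of windows of lower and higher genes, against 7.53% of windows of genes tested and 13.6% of all windows. Of the 10 such windows of higher genes, 4 were overlapping windows of Mir670hg, where the match lay after the annotated start. Median GC content was 64.3% in windows of lower genes, 60.3% in windows of higher genes and 60.3% in windows of genes tested. The Igfbp4 window held a TATA box 28 bases before its start. A match describes letters only.

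Receptors for neuropeptides and peptide hormones were among the lower genes, and no member passed as higher. Of 33 tested, 8 were lower (24.2%, against 2.75% over all genes tested), with a list median of -0.25. Sstr2, an inhibitory receptor for somatostatin, was at 4.45, 7.26 and 8.59 CPM (lowest, median, highest) in libraries labelled cKO, against 20.2, 24.9, 29.5, 33.8 and 24.9 CPM in those labelled WT. Its groups did not overlap and its difference was -1.92 (SE 0.16; edgeR adjusted p = 4.85e-05). Crhr1, the main receptor for the stress peptide CRH, was at 4.52, 6.93 and 7.48 CPM in libraries labelled cKO, against 13.3, 19.1, 22.7, 25.3 and 16.5 CPM in those labelled WT (log2 fold change -1.57). The neuropeptide Y receptor Npy1r averaged 7.87 ± 3.53 CPM in libraries labelled cKO and 24.01 ± 9.47 CPM in those labelled WT. The list held 5 calls without cKO 22, cKO 27 or WT 19.

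Among 25 neuropeptides, 4 were lower and none was higher, against 2.75% lower over all genes tested, and the list median was -0.09. Sst, the somatostatin precursor of an interneuron class, averaged 130 ± 16.3 CPM in libraries labelled cKO and 201 ± 32.7 CPM in those labelled WT (log2 fold change -0.63, SE 0.11; edgeR adjusted p = 0.00798), and an edgeR adjusted p of 0.33 in the fit of all 4 groups. Vip, the peptide of another interneuron class, was at 10.3, 12.9 and 20.6 CPM (lowest, median, highest) in libraries labelled cKO, against 19.6, 34.5, 35.4, 57.3 and 26.9 CPM in those labelled WT, so the groups overlapped. Its log2 fold change was -1.32. The 6 interneuron markers summed to 851 to 1364 CPM in libraries labelled cKO and 788 to 1283 CPM in those labelled WT. Sst and Vip were the 2 of them that passed, and 3 of the 6 had a negative value. Gad1, Gad2 and Slc32a1 had higher means in libraries labelled cKO (458, 276 and 219 CPM) than in those labelled WT (384, 237 and 151 CPM). Pvalb had a lower mean (13.9 against 17.5 CPM).

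Some receptors for classical transmitters were lower, and no member passed as higher. Of 9 AMPA and kainate subunits 5 were lower (median -0.35), of 7 metabotropic glutamate receptors 2 (median -0.43), of 19 genes for GABA receptors and synthesis 3 (median -0.27) and of 16 acetylcholine receptor genes 2 (median -0.10), against 2.75% lower over all genes tested. The metabotropic list held 1 call without cKO 20, cKO 22 or cKO 27. Grik4, a kainate receptor subunit, was at 17.7, 22.3 and 24.3 CPM (lowest, median, highest) in libraries labelled cKO, against 33.1, 37.7, 38.3, 42.0 and 35.4 CPM in those labelled WT. The WT-labelled values were all above the cKO-labelled ones (log2 fold change -0.77, SE 0.09; edgeR adjusted p = 0.000307). Gria2, the subunit that makes AMPA receptors impermeable to calcium, averaged 683 ± 27.5 CPM in libraries labelled cKO and 871 ± 46.0 CPM in those labelled WT (log2 fold change -0.35). Gabrg3, a gamma subunit of the GABA-A receptor, averaged 29.2 ± 3.65 CPM in libraries labelled cKO and 44.3 ± 4.59 CPM in those labelled WT. Chrm3, an excitatory muscarinic receptor, averaged 23.1 ± 2.65 CPM in libraries labelled cKO and 43.4 ± 9.76 CPM in those labelled WT.

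Adrenergic receptors had the lowest median among the transmitter receptor lists, -0.83 over 9 genes. Of these, 4 were lower and none higher, against 2.75% lower over all genes tested. Adra2c, an inhibitory noradrenaline receptor, averaged 8.40 ± 2.996 CPM in libraries labelled cKO and 19.5 ± 2.32 CPM in those labelled WT (log2 fold change -1.21). Adra1b, an excitatory one, averaged 5.27 ± 1.74 CPM in libraries labelled cKO and 16.2 ± 8.26 CPM in those labelled WT, where WT 25 had the highest value of 29.1 CPM (log2 fold change -1.62). The count was 2 when cKO 21, cKO 23, cKO 27, WT 18 or WT 19 was left out. Drd5, a dopamine receptor that raises cAMP, was 1 lower gene of 3 dopamine receptors and averaged 1.498 ± 0.339 CPM in libraries labelled cKO and 3.33 ± 0.606 CPM in those labelled WT.

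Some ion channel genes were lower, beside 2.75% lower and 0.62% higher over all genes tested. Of 78 potassium channel genes 9 were lower (median -0.16), of 18 cyclic nucleotide-gated and TRP channel genes 2 (median 0.005) and of 20 chloride channel and cotransporter genes 1 (median 0.006). None of these was higher. Of 23 calcium channel genes 0 were lower and 1 was higher (median -0.06). That gene, Cacnb2, encodes a beta subunit, had a log2 fold change of 0.29 and lost its call in 10 of the 11 leave-outs. Kcng1, a silent subunit that modifies Kv2 channels, averaged 28.5 ± 5.58 CPM in libraries labelled cKO and 54.0 ± 5.74 CPM in those labelled WT (log2 fold change -0.92). Trpc6, a cation channel opened by diacylglycerol, averaged 7.24 ± 1.58 CPM in libraries labelled cKO and 17.1 ± 4.92 CPM in those labelled WT (log2 fold change -1.24). Clcn2, a chloride channel, had 1 of the tightest separations: 42.8, 51.7 and 54.1 CPM (lowest, median, highest) in libraries labelled cKO, against 80.4, 77.5, 77.8, 77.5 and 74.8 CPM in those labelled WT. Its difference was -0.62 (SE 0.06; edgeR adjusted p = 0.000206).

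Some abundant called genes act in calcium signalling. Camk2n1, an inhibitor of CaM kinase II, averaged 912 ± 139 CPM in libraries labelled cKO and 1818 ± 690 CPM in those labelled WT, where WT 25 had 2901 CPM (log2 fold change -0.995, SE 0.20; edgeR adjusted p = 0.0159). Vsnl1, a neuronal calcium sensor, averaged 621 ± 25.1 CPM in libraries labelled cKO and 852 ± 138 CPM in those labelled WT. Of 25 protein kinase C and CaM kinase genes and regulators, 2 were lower (median -0.21), against 2.75% over all genes tested. The count ran from 1 without cKO 27 to 4 without WT 26.

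Single genes of other signalling families were lower, beside 2.75% lower over all genes tested. Rgs6, which speeds the turn-off of G proteins, averaged 23.4 ± 2.27 CPM in libraries labelled cKO and 47.5 ± 7.73 CPM in those labelled WT (log2 fold change -1.02, SE 0.11; edgeR adjusted p = 0.000206). It was 1 of 2 lower among 19 RGS genes, whose median was -0.02 and -0.094 without WT 25. That count was 1 without cKO 20, cKO 22, cKO 27, WT 18, WT 19 or WT 25. Ptpru, shown above by its promoter, averaged 25.5 ± 3.27 CPM in libraries labelled cKO and 51.0 ± 4.01 CPM in those labelled WT (log2 fold change -1.003), and 3 of 19 receptor tyrosine phosphatases were lower (median -0.08). Plk2, an activity-induced kinase that acts at synapses, averaged 76.5 ± 23.4 CPM in libraries labelled cKO and 187 ± 47.0 CPM in those labelled WT (log2 fold change -1.29). Of 24 activity-induced transcription factor genes, Ier5l was the 1 that passed, and the list median was -0.05, with -0.45 to 0.07 when 1 library was left out. Leaving out cKO 24 gave 3 calls in that list.

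At the synapse, some release genes were lower. Of 65 genes of vesicles and the release machinery 4 were lower (6.15%, against 2.75% over all genes tested; median -0.07), and of 19 postsynaptic scaffold genes edgeR called 0, with 4 at an unadjusted p under 0.05, 1 called by DESeq2 and 0 by limma-voom. Syt1, the calcium sensor of fast release, averaged 1013 ± 66.5 CPM in libraries labelled cKO and 1520 ± 293 CPM in those labelled WT (log2 fold change -0.59), with the highest value in WT 25. Rab3b, a vesicle GTPase, averaged 46.5 ± 5.63 CPM in libraries labelled cKO and 85.0 ± 12.1 CPM in those labelled WT (log2 fold change -0.87). The release list held 2 calls without cKO 21, cKO 27 or WT 25 and 7 without WT 26. Ddn, which encodes the dendritic protein dendrin, was at 707, 744 and 959 CPM (lowest, median, highest) in libraries labelled cKO, against 1191, 1248, 1286, 1365 and 1060 CPM in those labelled WT. Its groups did not overlap (log2 fold change -0.66, SE 0.09; edgeR adjusted p = 0.00155).

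Cell adhesion was represented first by the protocadherins. Of 53 tested clustered protocadherins, which give neurons their surface identity and whose promoter choice depends on cohesin and CTCF, 16 were lower (30.2%, against 2.75% over all genes tested) and none higher, 49 had a negative value and the list median was -0.61. Pcdha12 was at 0.607, 1.07 and 1.85 CPM (lowest, median, highest) in libraries labelled cKO, against 5.82, 4.20, 5.32, 7.45 and 3.46 CPM in those labelled WT (log2 fold change -2.17, SE 0.27; edgeR adjusted p = 0.00068). The groups did not overlap. Pcdhb22 averaged 6.52 ± 1.23 CPM in libraries labelled cKO and 12.97 ± 2.13 CPM in those labelled WT. The count was 10 without cKO 27, and members of the alpha cluster share exons with each other, as do those of the gamma cluster, so reads may have been assigned to another member of the same cluster.

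Outside the clusters, 5 of 38 cadherins and other protocadherins were lower (median -0.16), against 2.75% over all genes tested. Also lower were 7 of 43 contactins and related immunoglobulin adhesion genes (median -0.20) and 4 of 26 neurexins, neuroligins, LRRTMs and cerebellins (median -0.19). None of these was higher. Cdh22, a type II cadherin, averaged 24.8 ± 4.62 CPM in libraries labelled cKO and 47.6 ± 3.49 CPM in those labelled WT (log2 fold change -0.94). Cntn4, a contactin of axons, averaged 28.4 ± 4.47 CPM in libraries labelled cKO and 52.9 ± 11.2 CPM in those labelled WT (log2 fold change -0.90). Lrrtm4, a postsynaptic organiser of excitatory synapses, averaged 14.1 ± 1.71 CPM in libraries labelled cKO and 23.98 ± 3.67 CPM in those labelled WT (log2 fold change -0.77). The contactin list held 4 calls without cKO 23, WT 18, WT 19 or WT 25, and the cadherin list held 3 without cKO 24, cKO 27, WT 16, WT 18 or WT 19.

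Of 31 semaphorin, plexin and neuropilin genes, which guide axons, 3 were lower and 1 was higher (median -0.03). Over all genes tested 2.75% were lower and 0.62% higher. Plxnd1, a semaphorin receptor, was at 13.6, 20.0 and 25.4 CPM (lowest, median, highest) in libraries labelled cKO, against 59.3, 49.7, 72.3, 66.5 and 45.6 CPM in those labelled WT. It was less abundant in every library labelled cKO (log2 fold change -1.55, SE 0.17; edgeR adjusted p = 0.000256). The higher gene, Nrp2, averaged 75.4 ± 5.93 CPM in libraries labelled cKO and 52.6 ± 13.2 CPM in those labelled WT, and held its call in 1 of the 11 leave-outs, that of WT 16. The list held 2 calls without WT 19 or WT 25. Of 20 Slit, Robo, netrin and Unc5 genes edgeR called 0, with 4 at an unadjusted p under 0.05, 1 called by DESeq2 and 0 by limma-voom.

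The extracellular matrix list of collagens had 5 lower genes of 40 and none higher, with a median of -0.06, against 2.75% lower over all genes tested. Col6a2, an alpha chain of collagen VI, was at 6.55, 9.73 and 11.3 CPM (lowest, median, highest) in libraries labelled cKO, against 39.2, 51.6, 55.1, 40.1 and 39.1 CPM in those labelled WT. Its highest value among the libraries labelled cKO was far below the lowest of those labelled WT (log2 fold change -2.27, SE 0.15; edgeR adjusted p = 9.96e-06). Col23a1, a transmembrane collagen, averaged 11.2 ± 2.25 CPM in libraries labelled cKO and 31.8 ± 8.19 CPM in those labelled WT (log2 fold change -1.50). Bmp1, the protease that trims procollagen and frees BMPs, averaged 31.2 ± 3.29 CPM in libraries labelled cKO and 62.2 ± 3.31 CPM in those labelled WT (log2 fold change -0.996, SE 0.08; edgeR adjusted p = 2.73e-05). Of 51 ADAMTS, ADAM and matrix metalloproteinase genes 6 were lower (median -0.11), and the list held 3 calls without WT 19. Mmp16, a membrane-bound metalloproteinase, averaged 14.5 ± 1.15 CPM in libraries labelled cKO and 24.4 ± 3.67 CPM in those labelled WT.

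Enzymes that build surface sugars were lower in part, beside 2.75% lower over all genes tested. Of 37 enzymes of heparan and chondroitin sulfate 6 were lower (median -0.03), and of 19 sialyltransferases 3 were lower (median -0.015), with none higher in either list. Ndst3, which starts the sulfation of heparan chains, averaged 24.8 ± 6.69 CPM in libraries labelled cKO and 51.6 ± 7.197 CPM in those labelled WT (log2 fold change -1.06). St3gal1, which caps O-linked sugars with sialic acid, averaged 17.4 ± 4.85 CPM in libraries labelled cKO and 41.5 ± 4.28 CPM in those labelled WT (log2 fold change -1.25). Chst1, a sulfotransferase of keratan chains, averaged 179 ± 22.4 CPM in libraries labelled cKO and 266 ± 27.3 CPM in those labelled WT (log2 fold change -0.57).

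Among secreted signals, 8 of 41 Wnt ligands, receptors and modulators were lower and 1 was higher (median -0.17). Over all genes tested 2.75% were lower and 0.62% higher. Wnt7b, a ligand of neurons and vessels, was at 15.3, 18.6 and 22.02 CPM (lowest, median, highest) in libraries labelled cKO, against 40.6, 52.6, 61.0, 83.6 and 45.2 CPM in those labelled WT. The groups were separate (log2 fold change -1.59, SE 0.17; edgeR adjusted p = 0.000236). Wnt5a, a ligand of the non-canonical branch, averaged 6.06 ± 1.03 CPM in libraries labelled cKO and 12.2 ± 2.005 CPM in those labelled WT (log2 fold change -1.002). Igfbp4, a carrier that limits insulin-like growth factors, was at 25.4, 33.5 and 37.3 CPM (lowest, median, highest) in libraries labelled cKO, against 66.0, 92.1, 87.5, 86.2 and 82.8 CPM in those labelled WT. It was the 1 lower gene of 15 in insulin and IGF signalling (log2 fold change -1.35, SE 0.11; edgeR adjusted p = 2.73e-05). Of 38 BMP and TGF-beta genes 4 were lower (median -0.06), and the list held 2 calls without WT 19.

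Some nuclear receptor genes were lower, and clock genes passed in both directions, beside 2.75% lower and 0.62% higher over all genes tested. Thrb, a thyroid hormone receptor, averaged 59.1 ± 5.50 CPM in libraries labelled cKO and 89.2 ± 9.74 CPM in those labelled WT (log2 fold change -0.59), and it was 1 of 4 lower of 36 nuclear receptors (median -0.001). Of 18 clock genes, 2 were lower and 2 higher, with a median of -0.009 and 7 calls without cKO 24. Npas2, a partner of BMAL1, averaged 25.1 ± 2.60 CPM in libraries labelled cKO and 41.2 ± 7.21 CPM in those labelled WT (log2 fold change -0.72). Per3, a repressor of the clock, averaged 57.4 ± 3.45 CPM in libraries labelled cKO and 46.8 ± 2.18 CPM in those labelled WT (log2 fold change 0.30).

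Of 39 imprinted genes, expressed from 1 parental copy, 3 were lower and 2 higher (median 0.04), against 2.75% and 0.62% over all genes tested. Besides Dio3, the growth inhibitor Cdkn1c averaged 3.41 ± 0.778 CPM in libraries labelled cKO and 10.4 ± 5.30 CPM in those labelled WT (log2 fold change -1.61). Rian, a noncoding RNA of the same imprinted cluster as Dio3, averaged 767 ± 41.3 CPM in libraries labelled cKO and 600 ± 58.2 CPM in those labelled WT (log2 fold change 0.35), and lost its call without WT 18. The list held 2 calls without WT 18 and 3 without cKO 20, cKO 22, cKO 23, cKO 24, WT 16 or WT 19.

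Some markers of cortical layers were lower, and no member passed as higher. Of 20 upper-layer excitatory markers 7 were lower (median -0.50), and of 21 deep-layer ones 8 (median -0.26), against 2.75% over all genes tested. Among the 6 general excitatory neuron markers, edgeR called 0, with 1 at an unadjusted p under 0.05, 1 called by DESeq2 and 0 by limma-voom, and the median was -0.17, with all 6 negative. Without WT 25 that median was -0.052, with 3 of 6 negative. Calb1, the calcium buffer calbindin, was at 60.8, 62.9 and 107 CPM (lowest, median, highest) in libraries labelled cKO, against 115, 138, 153, 189 and 123 CPM in those labelled WT. Its groups did not overlap (log2 fold change -1.01, SE 0.16; edgeR adjusted p = 0.00431). Rprm, a deep-layer marker that halts the cell cycle when overexpressed, was at 23.1, 29.1 and 33.0 CPM in libraries labelled cKO, against 60.7, 108, 78.0, 92.3 and 78.1 CPM in those labelled WT (log2 fold change -1.55, SE 0.14; edgeR adjusted p = 0.000119). Crym, a thyroid hormone binding protein of deep layers, averaged 97.3 ± 12.4 CPM in libraries labelled cKO and 154 ± 27.1 CPM in those labelled WT.

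**Figure D4:**
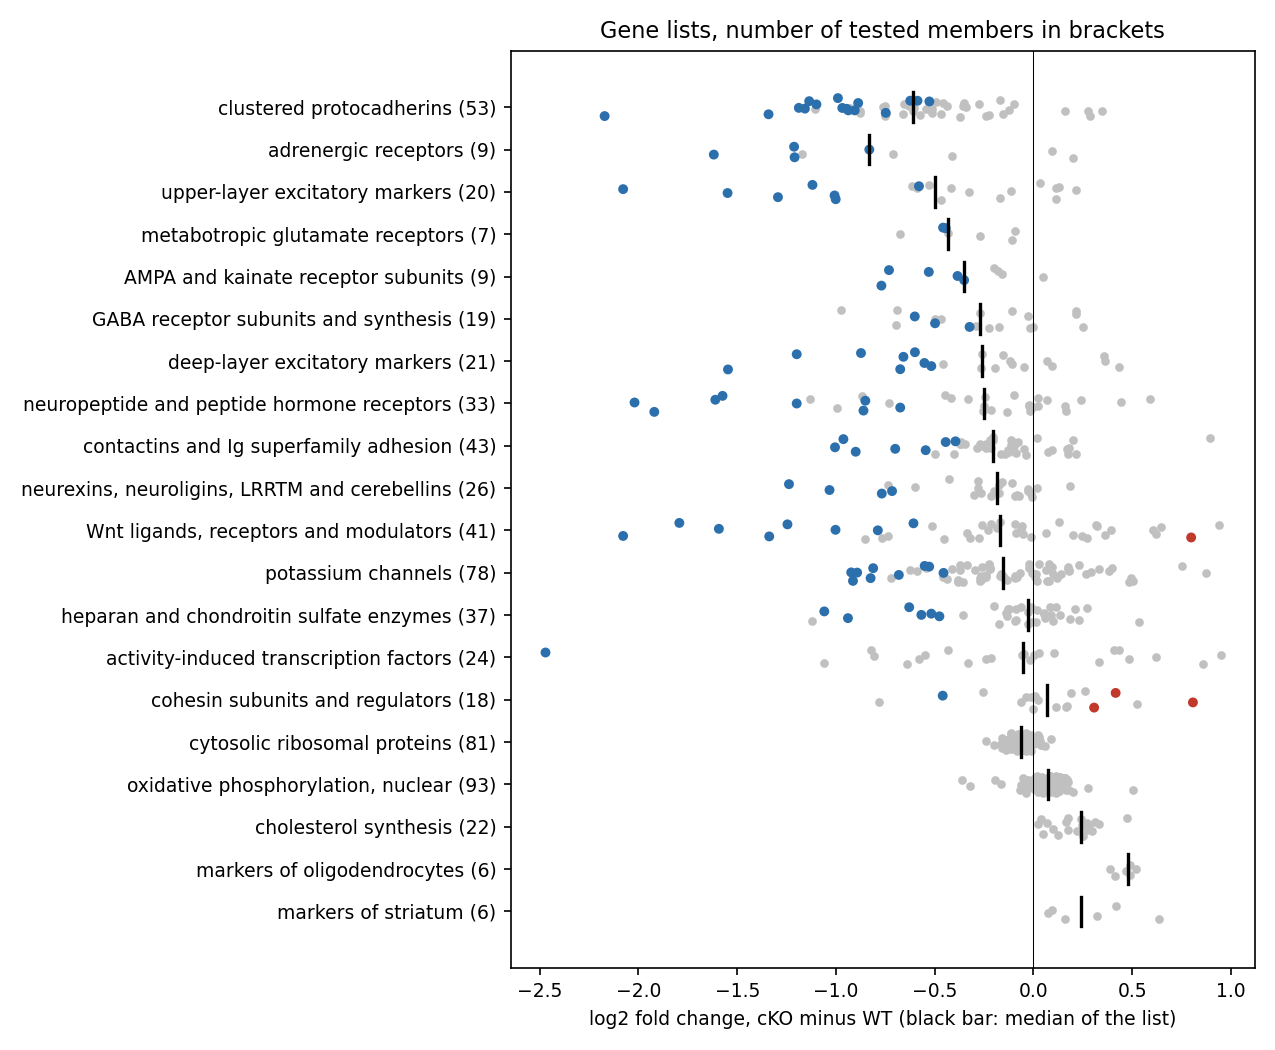
Each point is 1 tested gene of a list (row, number of tested genes in brackets), placed by its log2 fold change (cKO minus WT), with coloured points for genes that passed (blue lower, red higher in libraries labelled cKO) and a black bar at the list median. Medians run from -0.83 for adrenergic receptors to 0.48 for oligodendrocyte markers, none of which passed.

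The 100 genes higher in libraries labelled cKO had smaller differences. Nefm, the medium neurofilament chain of axons, was at 204, 220 and 268 CPM (lowest, median, highest) in libraries labelled cKO, against 138, 117, 125, 170 and 132 CPM in those labelled WT. All libraries labelled cKO lay above (log2 fold change 0.74, SE 0.10; edgeR adjusted p = 0.00122). Zmynd8, a chromatin reader, averaged 175 ± 12.95 CPM in libraries labelled cKO and 127 ± 7.74 CPM in those labelled WT (log2 fold change 0.46). Rcor2, a corepressor that pairs with the demethylase LSD1, averaged 23.2 ± 2.76 CPM in libraries labelled cKO and 14.3 ± 2.94 CPM in those labelled WT (log2 fold change 0.70).

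Further higher genes were the lipid transporter Abca7, at 32.9 ± 3.01 CPM in libraries labelled cKO and 22.3 ± 3.13 CPM in those labelled WT, and the actin nucleator Diaph1, at 89.8 ± 2.43 CPM in libraries labelled cKO and 72.3 ± 4.71 CPM in those labelled WT. Bcar3, an adaptor of integrin signalling, averaged 21.002 ± 3.35 CPM in libraries labelled cKO and 12.7 ± 1.58 CPM in those labelled WT (log2 fold change 0.73). Samd4, an RNA-binding repressor of translation, averaged 44.7 ± 4.64 CPM in libraries labelled cKO and 31.4 ± 3.16 CPM in those labelled WT. Slc18a2, whose promoter is shown above, was at 14.03, 27.2 and 41.6 CPM (lowest, median, highest) in libraries labelled cKO, against 17.3, 12.3, 9.77, 8.53 and 18.8 CPM in those labelled WT. Its groups overlapped, and its call was lost in 8 of the 11 leave-outs.

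Arsi, a sulfatase gene that lies beside Camk2a in the RefSeq gene order, had the largest rise among the 8 tested genes of that neighbourhood. It was at 2.30, 3.29 and 5.599 CPM (lowest, median, highest) in libraries labelled cKO, against 0.265, 0.445, 0.656, 0.379 and 0.665 CPM in those labelled WT. Every library labelled cKO was above every one labelled WT (log2 fold change 2.90, SE 0.33; edgeR adjusted p = 0.000403). Camk2a itself averaged 2030 ± 188 CPM in libraries labelled cKO and 2377 ± 461 CPM in those labelled WT and did not pass (log2 fold change -0.23; edgeR adjusted p = 0.391). Of the 8 genes of the neighbourhood, Arsi and Cd74 passed as higher, against 0.62% higher over all genes tested. Cd74 lost its call without cKO 21, cKO 22, cKO 27, WT 18, WT 19 or WT 25.

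Several housekeeping groups held no call by edgeR. Among 81 cytosolic ribosomal protein genes the median was -0.06, with 4 at an unadjusted p under 0.05 and 0 called by DESeq2 or limma-voom. Among 93 nuclear genes of oxidative phosphorylation the median was 0.07, with 4 at an unadjusted p under 0.05 and 0 called by the other tools. All 22 genes of cholesterol synthesis had a positive value, with a median of 0.24, 9 at an unadjusted p under 0.05, 2 called by DESeq2 and 0 by limma-voom. The 6 oligodendrocyte markers, cells rich in that pathway, had a median of 0.48. Without WT 25 the median was 0.27 for the 22 genes of cholesterol synthesis and 0.27 for the 6 markers. Among 21 histone genes the median was 0.10, with 2 at an unadjusted p under 0.05 and 0 called by the other tools.

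Genes lower in libraries labelled cKO had a larger median span than the genes tested. Matched to RefSeq (GRCm38.p6), the median span was 53.02 kb for 433 lower genes, 42.6 kb for 100 higher genes and 23.97 kb for 15262 genes tested. Spans over 100 kb were found for 37.2% of the lower genes, 23% of the higher genes and 14.9% of genes tested. The part of span in the calls was not tested.

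Of 15231 pairs of tested genes next to each other in that gene order, 28 had both members lower, 0 had both higher and 5 had 1 in each direction. Of the 28 pairs, 7 were in the protocadherin clusters. Pairs named here were chosen after their values were seen. Col6a2 and Col6a1, collagen VI chains, had log2 fold changes of -2.27 and -0.93. Sst and the transcriptional repressor gene Bcl6 had -0.63 and -0.55. Lypd6b and Lypd6, which modulate nicotinic receptors, had -0.53 and -0.57. Bcar3 and Fnbp1l were an opposite pair, at 0.73 and -0.51.

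The male libraries were set beside the female ones in a fit of all 4 groups of 22 libraries, with separate controls for each sex. Of the 543 genes called in females, 439 of the 443 lower ones were also negative in males and 99 of the 100 higher ones also positive. Median log2 fold changes were -0.70 in females and -0.57 in males for the lower genes, and 0.40 in females and 0.34 in males for the higher ones. The female values chose these genes, so a larger female value was favoured. In this fit 178 of the 543 passed in males and 268 passed in females. Over all 16855 genes of the fit, 294 passed in females. The number passing in males and the share with the same sign over all these genes are not reported here. The difference between the sexes itself was called for 0 of 16855 genes by edgeR (0%), with 176 at an unadjusted p under 0.05, and for 0 by DESeq2. Ier5l had a log2 fold change of -2.50 in males and Dio3 of -3.27. Trh, a hypothalamic releasing hormone, had -1.21 in females and 0.18 in males, and Crh had -0.99 in females and -0.03 in males, and neither difference passed. Esrrb, an orphan nuclear receptor, had the smallest p of the difference (-1.14 in females, 0.48 in males; edgeR adjusted p = 0.99998) at a mean of at most 1.17 CPM in either female group.

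**Figure D5:**
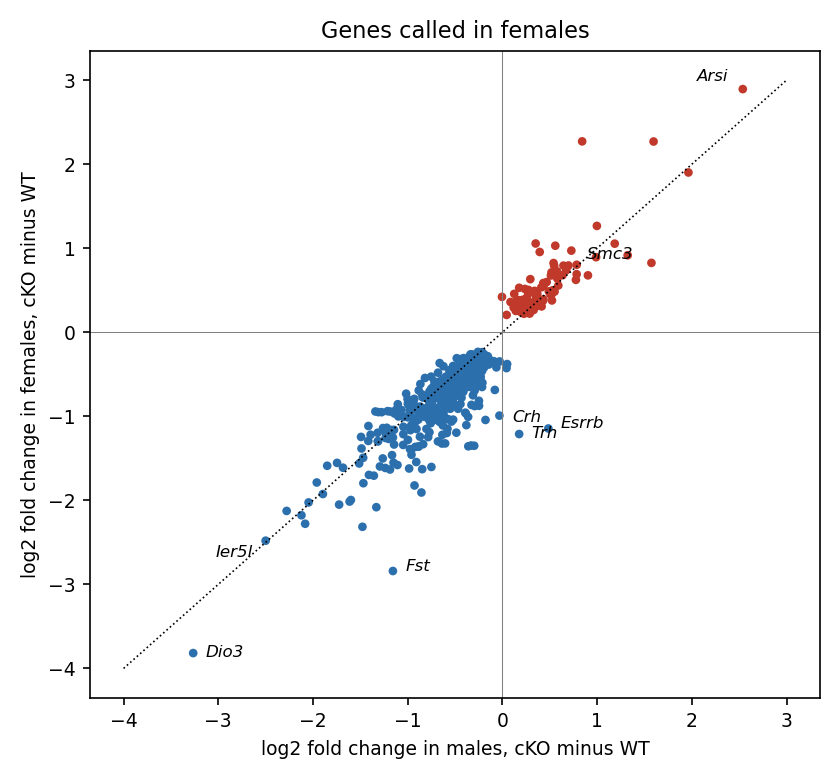
Each point is 1 of the 543 genes called in females, with the log2 fold change (cKO minus WT) in males on the x axis and in females on the y axis, blue for genes lower and red for genes higher in female libraries labelled cKO. The dotted line marks equal values, and 538 of the 543 points have the same sign in both sexes.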

How the data were processed

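Polyadenylated RNA of mouse brain tissue was sequenced, 1 library per animal. The authors deposited raw read counts, 1 whole number per gene and library, in 1 table per sex. The tools named, per the submitters' processing notes, are cutadapt, STAR, HTSeq and DESeq2 with genome build GRCm39; no version, order, annotation or strand setting is given in the sources used here. Without a known strand setting, reads of overlapping and antisense genes cannot be told apart. The 22 columns of counts normalised by the authors and their fold changes and p-values were not used. One title reads cKO2 with a hyphen, and the count column numbered 20 was counted as a female cKO replicate from its name.

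Of the 20565 genes (22 without a name), 16123 passed the filter and were tested in females with edgeR 4.0.16 (quasi-likelihood test, TMM scaling) in R 4.3.3 with limma 3.58.1. A gene needed at least 10 counts by filterByExpr's rule and 15 in total, and was called at a Benjamini-Hochberg adjusted p below 0.05. Fold changes are cKO minus WT on the log2 scale, and CPM are relative to the TMM-scaled total. SEs were obtained by dividing the fold change by the root of F. Of 25 pairs of replicates, none agreed within sampling noise (chi-square per degree of freedom of at least 5.21). Each animal gave 1 library, and no batch is given in the labels. Totals of 13832715 to 16896239 counts limit the precision of low genes, and the SEs include the spread between animals. The sexes were compared by the genotype by sex term of 1 fit of 22 libraries.

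The comparison and the 81 gene lists were chosen with earlier results of these data known. The text names Smc3, the 15 largest, 10 most significant and 8 most abundant changes in each direction (mean of at least 50 normalised counts, no predicted gene), up to 4 called members of each list by p (2 by p where none was called), and the 10 smallest p of the sex difference; some of these genes are not reported here. The alternatives were DESeq2 1.42.0 size factors and Wald test, no filter, limma-voom, a fit of all 4 groups, oligodendrocyte marker level as a covariate and leaving out each library. The pipeline was tested on simulated counts. Gene spans, gene order and promoter windows are from RefSeq GRCm38.p6, with no conversion between builds. Spans and order were matched by Ensembl ID and then by symbol, and windows by symbol. Of 16116 tested symbols, 11980 had a window.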

Additional observations from a re-analysis of the deposited data

Results flagged for a closer look

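In each group of 5 or 6 libraries, every described gene and marker sum was checked for 1 library far from the others (Dixon's gap over the range, 95% level). Of 472 groups checked, 40 had such a library (8.47%), where the level used gives about 1 in 20 for independent, normally distributed values. Most values here were untransformed CPM from the same libraries, so an excess cannot be read from this share. Each is given with its value and the range of the other libraries of its group.

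Library cKO 24 held the largest number, 12. It was highest for Itga4 at 6.75 CPM (others 3.16 to 4.20), Gria3 at 198 CPM (others 146 to 165) and Ddn at 959 CPM (others 707 to 794). Also high there were Ndst3 at 38.0 CPM (others 20.4 to 24.5), Plk2 at 124 CPM (others 61.7 to 69.5) and Calb1 at 107 CPM (others 60.8 to 73.3). High values were likewise found for Kcnh1 at 40.9 CPM (others 29.7 to 32.3), Npy1r at 14.4 CPM (others 4.79 to 8.21) and Rgs14 at 55.0 CPM (others 33.4 to 36.4). It was lowest for Grik4 at 17.7 CPM (others 21.95 to 24.3), Gabrb1 at 129 CPM (others 147 to 155) and the summed astrocyte markers at 1054 CPM (others 1278 to 1373).

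Library cKO 21 held 6. The high values there were Cbln1 at 9.03 CPM (others 3.69 to 4.86) and Ttr at 528 CPM (others 1.75 to 6.43). Also high there were Folr1 at 6.46 CPM (others 0.540 to 1.78) and the summed choroid plexus markers at 598 CPM (others 11.6 to 35.8). It was lowest for Sema3c at 13.04 CPM (others 19.5 to 22.6) and Cdkl1 at 16.4 CPM (others 20.96 to 23.6).

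Library cKO 20 held 3. Its high values were Thrb at 69.2 CPM (others 53.9 to 59.4) and Mir670hg at 26.4 CPM (others 7.62 to 13.8). It was lowest for Wnt5a at 4.04 CPM (others 6.00 to 6.90).

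Library cKO 22 held 1. The library was highest for St6galnac5 at 118 CPM (others 98.0 to 104).

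Library cKO 27 held 2. High there were Smc3 at 149 CPM (others 121 to 129) and Rps2 at 180 CPM (others 167 to 170).

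Library WT 16 held 6. Its own high values were Wnt5a at 15.7 CPM (others 10.7 to 11.8), St6galnac5 at 154 CPM (others 131 to 137) and Gabrg3 at 52.4 CPM (others 41.0 to 43.6). Also high there were Cntnap5b at 14.2 CPM (others 8.58 to 10.2) and Lum at 3.64 CPM (others 2.99 to 3.13). It was lowest for Hs3st4 at 82.0 CPM (others 101 to 103).

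Library WT 25 held 4. Highest there were Trpc6 at 25.8 CPM (others 14.2 to 16.2) and Syt1 at 2027 CPM (others 1303 to 1468). Also high there were Hapln4 at 75.1 CPM (others 56.7 to 62.0) and Cspg5 at 447 CPM (others 374 to 391.7).

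Library WT 26 held 6. It was highest for Lrrtm4 at 30.4 CPM (others 21.5 to 23.5), Slc1a1 at 101 CPM (others 88.6 to 90.9) and Hsd11b1 at 16.6 CPM (others 8.31 to 10.5). Also high there were Pomc at 7.65 CPM (others 1.79 to 2.80) and the summed hypothalamus markers at 8.32 CPM (others 2.11 to 3.56). It was lowest for Rgs5 at 78.2 CPM (others 90.5 to 93.5).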

How the results depend on the processing

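No paired analysis was possible because the groups compared share no replicate numbers. The 543 calls (100 higher, 443 lower) became 899 with DESeq2's Wald test (257 higher), all 543 among them, and 294 in the fit of all 4 groups (38 higher, 256 lower), which kept 268 of them. Leaving out 1 library gave 324 to 681 calls, 31 to 120 of them higher and 291 to 561 lower. The higher calls numbered 31 without WT 18 and 33 without WT 19, 41 without cKO 27, 49 without cKO 22 and 57 without cKO 20. Calls numbered 360 without cKO 27, 341 without WT 18 and 324 without WT 19, and the lower calls 291 without WT 19. With oligodendrocyte marker level as a covariate 393 of the 543 held, with limma-voom 497 and without WT 25 389. The cause of these shifts was not tested. Smc3 held its direction and call in each of these settings. The sex difference was called for 0 genes with DESeq2 size factors, with no filter, with DESeq2 and with each of the 22 libraries left out. Limma-voom and the covariate were not run for it.

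Of 174 called genes covered by the naming rule other than Smc3, 81 passed in every setting and 122 with every library left out. The direction turned for 2 uncalled genes. Acta2 had 0.09 in the fit reported and -0.055 to 0.20 with 1 library left out, and Col2a1 had 0.05, with -0.12 to 0.19 with 1 library left out and -0.057 with the covariate. List counts and medians without each library were added after seeing the data. With DESeq2 size factors the median of all genes was 0.01. Depth limits the 3397 genes with a mean under 50 counts, where the median SE was 0.267.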
